A study of Mus musculus with 8 samples.

Results

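The Dppa genes (developmental pluripotency associated) Dppa1, Dppa2, Dppa3, Dppa4 and Dppa5a were followed across mouse pluripotent stem cell lines. They were taken by gene name and make up 5 of the 22878 gene entries of the expression files. RNA-seq compared the mouse embryonic stem cell (ESC) line R1 with secondary induced pluripotent stem cell (iPSC) lines, to ask whether iPSCs made from different tissues differ from ESCs and from each other. Secondary iPSCs are made from somatic cells of all-iPSC mice, in which every cell carries Oct4, Sox2, c-Myc and Klf4 under doxycycline control, and the drug was withdrawn before colonies were picked. The donors were 8-week-old mice. The mesoderm gave line 16-6 (bone marrow hematopoietic cells) and line 32 (adipocyte progenitors of fat), the ectoderm gave S8 (epidermis) and the endoderm gave T2 (stomach lining). R1, 16-6 and 32 had 2 libraries each, and S8 and T2 had 1 each. Each somatic cell type is represented by a single line, so that cell of origin and line cannot be told apart. All lines were grown on mouse embryonic fibroblast feeder cells treated with mitomycin C.

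The Dppa genes share a name given for their expression in pluripotent cells rather than a common ancestor. Dppa2 and Dppa4 are related, neighbouring genes whose SAP domain proteins bind chromatin as a pair and act upstream of Dux and the Zscan4 genes. Dppa3 (Stella, PGC7) is a maternal and germ cell factor that protects DNA methylation in the zygote and restrains UHRF1, the protein that brings DNMT1 to newly copied DNA. Dppa5a (Esg1) encodes a KH domain RNA-binding protein.

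Levels are given as FPKM, the number of fragments scaled by transcript length and library size, after division by 1 common constant so that the median library total is 1000000. The depth estimated from the confidence limits was 15.5 to 16.7 per library, in units of 1000000 fragments. The study itself lists far more reads for S8 and T2 than for the other libraries, with a smaller share mapped uniquely. For S8 and T2, line and this difference in sequencing cannot be told apart. Over all entries, replicate libraries had a Spearman rho across genes of 0.9709 to 0.9743. Differences are on the log2(FPKM + 1) scale from limma, with Benjamini-Hochberg adjusted p-values over 13693 genes that reached an FPKM of 1 in at least 1 library. A gene was called where the adjusted p was below 0.05 and the difference at least 2-fold. S8 and T2, with 1 library each, were assumed to vary like the other lines. The replicates are described as biological, without saying whether they were separate cultures, and the p-values measure the spread between these libraries.

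The label of pluripotent cells was checked on Pou5f1, Sox2, Nanog, Zfp42 and Sall4, all of which were above an FPKM of 1 in every library. Their summed FPKM was 1051 and 1070 in 16-6, 1284 in T2 and 1691 to 1744 in R1, 32 and S8. Single markers did not all follow the sum. In S8, Pou5f1 was at 1020 FPKM, against 605.3 and 635.6 in R1. Nanog was at 80.76 in S8 (177.2 and 174.2 in R1) and Zfp42 at 118.6 (540.6 and 544). Of the 5 markers, 2 were called as lower and 0 as higher in S8 against R1, where 16.7% of all genes were called. T2 was below both libraries of 16-6 for Nanog and Zfp42, and above them for Pou5f1, Sox2 and Sall4. All 10 fibroblast markers were detected in every library, with a summed FPKM of 2470 and 2498 in 16-6, 1269 and 1389 in R1, 804.6 in T2, 580.9 in S8 and 293.6 and 300.1 in 32. Line 16-6 thus had the lowest pluripotency sum and the highest fibroblast sum, and in RNA from whole cultures fewer pluripotent cells and less RNA per cell cannot be told apart. The fibroblast markers did not all move together. In 16-6 against R1, 5 were called as higher and 2 as lower, where 7.11% of all genes were called. The lower ones were Dcn (−2.63) and Lum (−2.72). Marker sums stayed at or below 14 for primitive endoderm and 17.7 for trophectoderm. All 6 primitive endoderm markers were above 0 in every library, and of the 4 trophectoderm markers only Elf5 was at 0, in 1 library of R1.

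In genome build mm9, Dppa4 (chr16:48283848-48294405) and Dppa2 (chr16:48310387-48319626) lie 16 kb apart on the plus strand. Dppa3 (chr6:122576442-122580289) is also on the plus strand, between Gdf3 and Nanog. Dppa5a (chr9:78214861-78216006) and Dppa1 (chr11:46420512-46442776) are on the minus strand. The longest annotated transcripts have 7 exons for Dppa1, Dppa2 and Dppa4, 4 for Dppa3 and 3 for Dppa5a. Their lengths are 1575 bases for Dppa1, 1948 for Dppa2, 1534 for Dppa4, 833 for Dppa3 and 619 for Dppa5a. Each has further copies in the genome over at least 50% of the transcript, 10 for Dppa2, 6 for Dppa4, 2 for Dppa5a and 1 each for Dppa3 and Dppa1. The closest copies were 97.7% identical for Dppa3 and 97.5% for Dppa5a. Since only unique alignments were kept, reads that fit a copy equally well would be lost, and the levels of Dppa3 and Dppa5a are uncertain to that extent.

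Dppa2, Dppa3, Dppa4 and Dppa5a were expressed in every line, at levels per unit length that spanned more than an order of magnitude, while Dppa1 was listed at or close to 0. Dppa5a was among the most abundant transcripts, ranking from 91 in 32 to 159 in 16-6 of the 22878 entries. Dppa4 ranked from 880 in R1 to 1581 in 16-6, Dppa2 from 1343 in S8 to 2709 in 16-6, and Dppa3 from 592 in 32 to 2424 in R1. The implied number of fragments was 4394 to 11419 for Dppa5a, 1341 to 2406 for Dppa4, 1555 to 3070 for Dppa2 and 342 to 1545 for Dppa3. That of Dppa4 did not follow its FPKM between the R1 libraries, so it is only rough. Each of the 4 genes differed between the lines in limma's moderated F test, as did 88.4% of all genes tested. The adjusted p was 0.000112 for Dppa3, 0.000356 for Dppa2, 0.000404 for Dppa4 and 0.021 for Dppa5a.

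**Figure D1:**
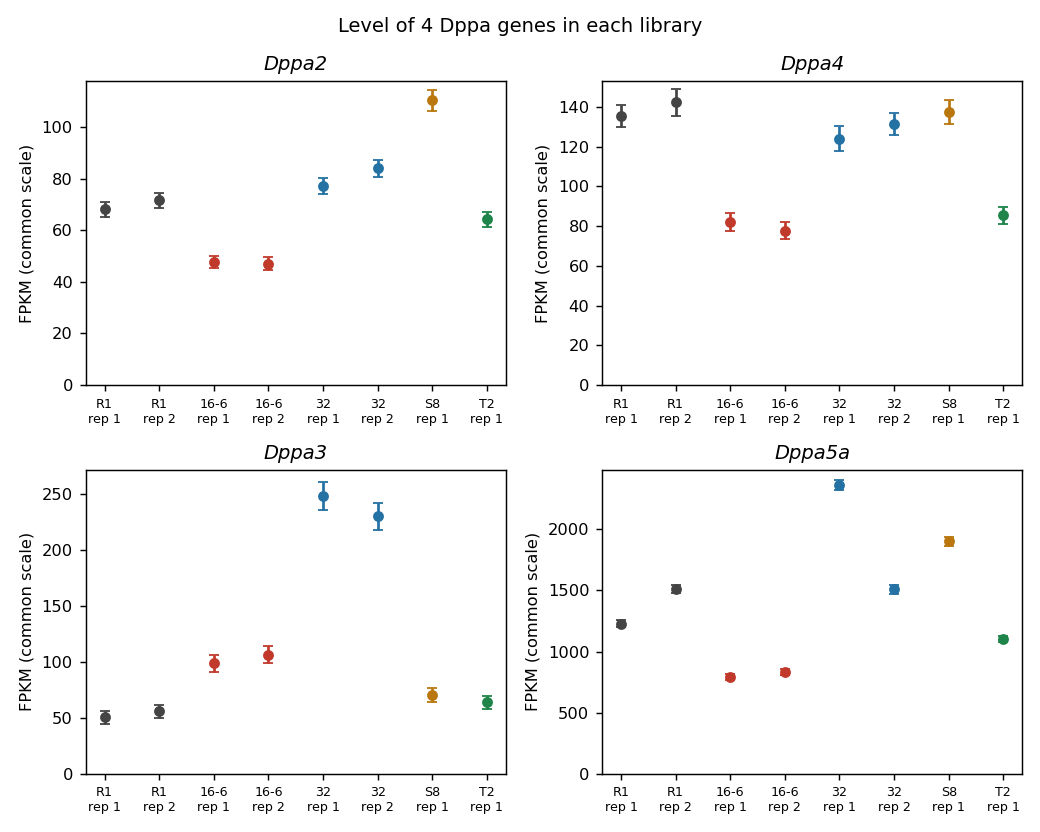
FPKM of Dppa2, Dppa4, Dppa3 and Dppa5a (vertical axes, from 0) in each of the 8 libraries, with the deposited confidence limits as bars. Dppa2, Dppa4 and Dppa5a are lowest in both libraries of 16-6, while Dppa3 is highest in both libraries of 32 and lowest in both of R1.

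Dppa2 was measured at 68.1 and 71.58 FPKM in R1, 47.6 and 47.05 in 16-6, 77.22 and 83.95 in 32, 110.3 in S8 and 64.22 in T2. The order was S8, 32, R1, T2 and 16-6, the highest line being 2.33 times the lowest. Of neighbours in that order, T2 and R1 did not differ beyond their spread (T2 minus R1 −0.12 ± 0.07 (SE), 95% interval −0.29 to 0.05, limma adjusted p = 0.178), and the other neighbours did differ. Against R1, Dppa2 was lower in 16-6 (−0.55 ± 0.05, limma adjusted p = 0.00108), higher in 32 (0.20 ± 0.05, adjusted p = 0.0236) and higher in S8 (0.65 ± 0.07, adjusted p = 0.000777). The difference of 32 was lost after quantile normalization (0.05, limma adjusted p = 0.389), without the first R1 library (adjusted p = 0.102), without the second 32 library (adjusted p = 0.079) and without either library of 16-6 (adjusted p = 0.0534 and 0.0535). That of S8 was −0.06 when libraries were scaled to Pou5f1. The only pair of lines called for Dppa2 was S8 against 16-6 (1.20 ± 0.07, limma adjusted p = 0.000144), although 9 of the 10 pairs had an adjusted p below 0.05. Scaled to Pou5f1, whose reads could come from the endogenous gene or the inducible copy, this difference was 0.16 and was not called.

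Dppa4, the partner of Dppa2, was at 135.6 and 142.5 FPKM in R1, 82.06 and 77.65 in 16-6, 124 and 131.5 in 32, 137.6 in S8 and 85.51 in T2. The lines fell into a higher set, R1, S8 and 32, and a lower set, T2 and 16-6, whose libraries did not overlap. Neighbours within each set did not differ beyond their spread, and neither did R1 from 32 (32 minus R1 −0.12, 95% interval −0.26 to 0.01, limma adjusted p = 0.0963), although this difference passed the test after quantile normalization (−0.33, adjusted p = 0.00308) and relative to Pou5f1 (−0.22, adjusted p = 0.0133). Against R1, Dppa4 was lower by 0.79 ± 0.05 in 16-6 (limma adjusted p = 0.000386) and by 0.69 ± 0.06 in T2 (adjusted p = 0.001). Dppa4 had the narrowest range of the 4 genes, 1.74-fold from the highest to the lowest line, and no pair of lines reached the 2-fold threshold. In S8 the difference from R1 was −0.01 (95% interval −0.18 to 0.15), but −0.73 (limma adjusted p = 0.000239) when scaled to Pou5f1 and −0.27 (adjusted p = 0.00969) after quantile normalization. The lines with less Dppa4, 16-6 and T2, also had the lowest pluripotency sums, while their fibroblast sums were the highest and the third highest. The part of these cultures' composition in the difference was not tested.

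Within a library, the scale cancels from the ratio of 2 genes. The ratio of Dppa2 to Dppa4 FPKM was 0.502 in both libraries of R1, 0.58 and 0.606 in 16-6, 0.622 and 0.639 in 32, 0.802 in S8 and 0.751 in T2. All 6 iPSC libraries thus lay above both R1 libraries, and the ratio was highest in the lines with a single library, in S8 with more Dppa2 and in T2 with less Dppa4 than R1. No test was run on the ratio.

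**Figure D2:**
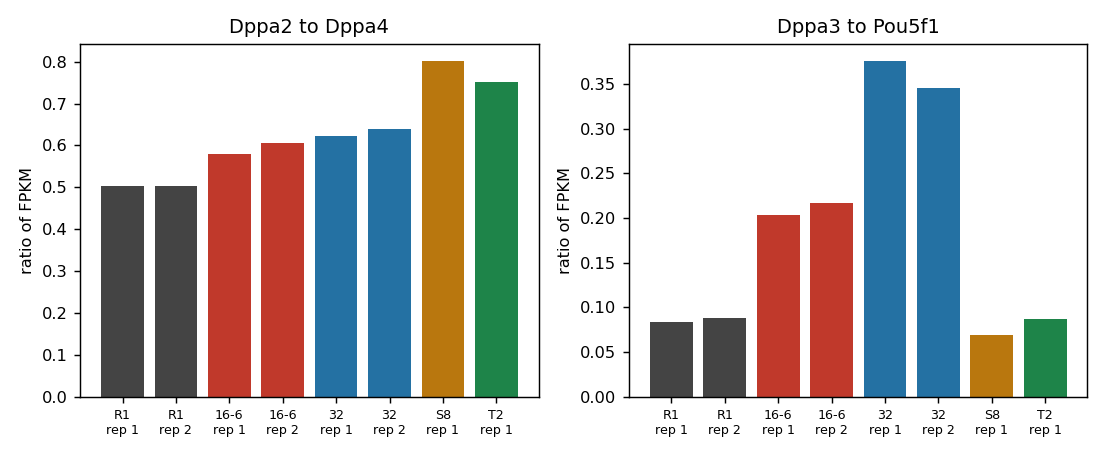
Ratio of FPKM within each of the 8 libraries (vertical axes, from 0), for Dppa2 to Dppa4 on the left and Dppa3 to Pou5f1 on the right. The Dppa2 to Dppa4 ratio is 0.502 in both R1 libraries and 0.58 or above in the iPSC libraries, while Dppa3 to Pou5f1 is 0.345 and 0.376 in 32 and at or below 0.217 elsewhere.

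Dppa3 showed the widest range. It was at 50.36 and 55.72 FPKM in R1, 98.7 and 106.7 in 16-6, 248.6 and 230.5 in 32, 70.26 in S8 and 63.8 in T2. Every iPSC library was above both R1 libraries, and the means of 32 (239.6 ± 12.8 (SD, n = 2)) and R1 (53.04 ± 3.8 (SD, n = 2)) differed 4.52-fold. Line 32 was higher than R1 by 2.16 ± 0.07 (SE) on the log2 scale (limma adjusted p = 4.6e-05), the only difference of a Dppa gene from R1 that was called. The share of genes called in that comparison was 9.77%, and 1.54% were called as higher. Over every other scaling, filter and omitted library tried, this difference stayed between 1.99 and 2.23. Line 16-6 was higher than R1 by 0.94 ± 0.07 (limma adjusted p = 0.000584), just short of 2-fold. It reached 1.04 with median-of-ratios scaling, 1.28 relative to Pou5f1 and 1.01 without the second R1 library.

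In S8 and T2 the differences of Dppa3 from R1 were smaller. S8 was higher by 0.40 ± 0.09 (limma adjusted p = 0.0121), which missed the threshold after quantile normalization (0.19, adjusted p = 0.0902) and turned to −0.30 relative to Pou5f1. For T2 the difference was 0.26 ± 0.09 (limma adjusted p = 0.0541, and 0.0463 without the second R1 library), and its limits, 58.1 to 69.51 FPKM, overlapped those of the second R1 library, 50.19 to 61.26. S8 and T2 did not differ beyond their spread (T2 minus S8 −0.14, 95% interval −0.40 to 0.13, limma adjusted p = 0.349). Line 32 exceeded the other iPSC lines too, by 1.21 ± 0.07 over 16-6 (limma adjusted p = 0.00018). The difference from 32 was −1.75 ± 0.09 in S8 (limma adjusted p = 0.000206) and −1.89 ± 0.09 in T2 (adjusted p = 0.000291). That of 32 over 16-6 was 0.77 relative to Pou5f1 and then not called. The lines 32 and 16-6, highest for Dppa3, had the lowest and the highest fibroblast sums. The part of these cultures' composition in the order of Dppa3 was not tested.

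**Figure D3:**
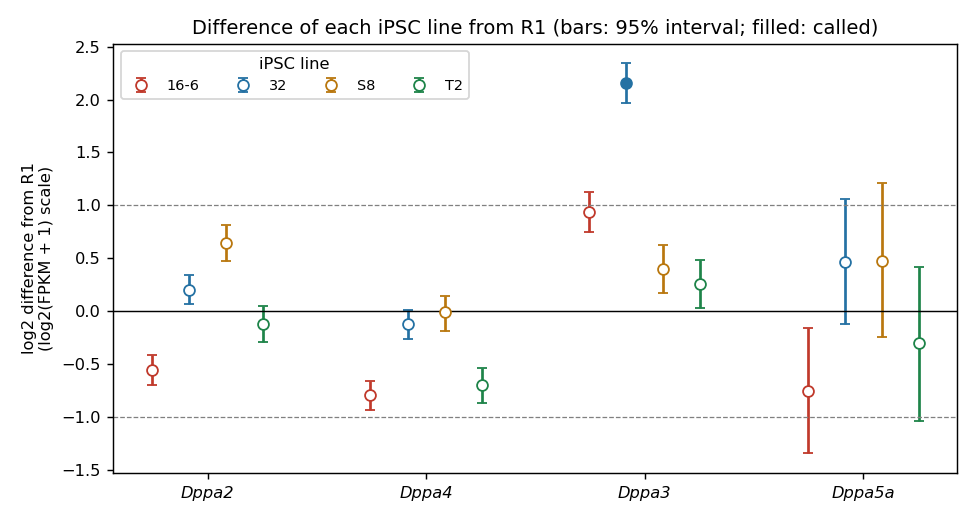
Difference of each iPSC line from R1 on the log2(FPKM + 1) scale (vertical axis) for 4 Dppa genes, with 95% intervals as bars. Dashed lines mark 2-fold, and the filled point, Dppa3 in line 32 at 2.16, is the only one called.

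Dppa5a was the most abundant of the genes and the one that differed most between replicates. It was at 1227 and 1511 FPKM in R1, 793.1 and 831.3 in 16-6, 2362 and 1508 in 32, 1904 in S8 and 1104 in T2. The confidence limits of the 2 libraries did not overlap in R1 or in 32, where the ratio of the higher to the lower library was 1.57. Of the 1342 entries with a mean FPKM of 100 or more, 38 were as far apart in 32. No neighbours in the order 32, S8, R1, T2 and 16-6 differed beyond their spread. Among differences from R1 only that of 16-6 passed the test (−0.75 ± 0.23 (SE), limma adjusted p = 0.0424). Its adjusted p was 0.083 to 0.181 when any library of R1 or 16-6 was left out, 0.0627 with median-of-ratios scaling and 0.172 relative to Pou5f1. The differences of 32 (0.47, 95% interval −0.12 to 1.06), S8 (0.48, −0.24 to 1.21) and T2 (−0.30, −1.03 to 0.42) from R1 did not pass the test, although 32 did without its second library (0.79, limma adjusted p = 0.018) and S8 did without either library of 32 (adjusted p = 0.0481 and 0.0486).

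Between iPSC lines, Dppa5a was called as higher than in 16-6 in line 32 (1.22 ± 0.23, limma adjusted p = 0.00773) and in S8 (1.23 ± 0.28, adjusted p = 0.0133). Neither call held under every alternative. Without the first library of 32 the first difference was 0.89, and without the first library of 16-6 the adjusted p of the second was 0.0573. Relative to Pou5f1 they were 0.77 and 0.17, and after quantile normalization 0.93 and 0.92.

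Dppa1 was listed at 0 in 7 libraries. In T2 it was listed at 0.03867 FPKM (upper limit 0.1524), equivalent to 0.5 fragment, so it did not enter the tests. Its RefSeq promoter entry was the only one found among the 5 genes. The 250 bases before its start in GRCm38.p6 (chr11:46629275-46629524, minus strand) are shown because Dppa1 is the gene of the group with almost no transcript, with CpG dinucleotides in capitals:
Dppa1 promoter: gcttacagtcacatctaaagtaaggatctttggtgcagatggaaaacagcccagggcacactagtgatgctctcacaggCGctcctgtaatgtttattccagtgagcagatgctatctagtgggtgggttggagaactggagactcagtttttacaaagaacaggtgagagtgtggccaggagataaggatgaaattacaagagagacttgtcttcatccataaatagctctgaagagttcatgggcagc
This window held 1 CpG, against a median of 6 in the 32851 promoters of the table, of which 18.8% had as few. On either strand it held the SOX motif ACAAAG, as did 16.5% of promoters. The octamer ATGCAAAT, present in 1.6% of promoters, and TATAAA, in 12.4%, were not among its letters. Methylation and binding at this promoter were not measured here.

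Counted over the group, 0 of the 4 tested Dppa genes were called between 16-6 and R1, where 7.11% of all genes were called. Between 32 and R1, 1 was called, where 9.77% of all genes were called and 1.54% as higher. The count was 0 in S8 against R1 and in T2 against R1, with 16.7% and 10.5% of all genes called. Without the 2-fold minimum, all 4 had an adjusted p below 0.05 in 16-6 against R1 in limma, where 55.6% of all genes did, and 2 in 32, 2 in S8 and 1 in T2, where 61.5%, 66.7% and 57.9% did. The same count was 4 in 32 against 16-6 (60.4% of all genes), 4 in S8 against 16-6 (66.6%), 2 in T2 against 16-6 (52.4%), 2 in S8 against 32 (60.8%), 3 in T2 against 32 (52.3%), 2 in T2 against S8 (34.5%) and 2 for the average iPSC line against R1 (65%). With the minimum, among pairs of iPSC lines, 2 of 4 were called in 32 against 16-6 (10.3% of all genes) and in S8 against 16-6 (17.3%). In S8 against 32 (11.8%) and T2 against 32 (7.43%) 1 was called, and 0 were called in T2 against 16-6 (8.07%) and T2 against S8 (2.75%). The average of the 4 iPSC lines against R1 gave 0 calls (6.41% of all genes), with Dppa3 at 0.94 (limma adjusted p = 0.000258), Dppa4 at −0.41 (adjusted p = 0.00102), Dppa2 at 0.05 (adjusted p = 0.398) and Dppa5a at −0.02 (adjusted p = 0.919). These comparisons share libraries, so the counts are not independent of each other.

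The neighbours of the Dppa genes were compared across the same lines. Morc1, a germline gene that silences transposons, begins 112 kb beyond Dppa2. It was at 26.93 and 27.58 FPKM in R1, 10.39 and 9.146 in 16-6, 30.2 and 29.64 in 32, 34.7 in S8 and 15.58 in T2. Like Dppa4, it was lower in 16-6 (−1.39 ± 0.07, limma adjusted p = 0.00018, called) and in T2 (−0.77 ± 0.08, adjusted p = 0.00136) than in R1. Pvrl3, a nectin adhesion gene 1786767 bases before Dppa4, stayed between 30.03 and 36.67 FPKM, and no line passed the test against R1, except that relative to Pou5f1 S8 was at −0.67 (limma adjusted p = 0.0027) and 16-6 at 0.30 (adjusted p = 0.0274).

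At the Dppa3 locus, Gdf3, a TGF-beta family ligand 16.4 kb away, and Nanog, the homeodomain pluripotency factor 77.3 kb away, were both higher in 32 than in R1, by 0.69 ± 0.04 (limma adjusted p = 0.000166) and 0.88 ± 0.04 (adjusted p = 9.24e-05). Neither reached 2-fold. The entry Nanogpd, which lies within the span of Nanog, was called as higher in 32 (1.08 ± 0.09, limma adjusted p = 0.000497). It was at 66.93 and 77.58 FPKM in 32 and at 32.96 and 34.17 in R1. Its difference was 1.16 with median-of-ratios scaling. After quantile normalization (0.99) and relative to Pou5f1 (0.98) it was no longer called. In S8 Nanog was lower (−1.11 ± 0.05, limma adjusted p = 0.000101) and Gdf3 higher (0.53 ± 0.04, adjusted p = 0.000475), the latter turning to −0.18 relative to Pou5f1. Apobec1, a cytidine deaminase gene 24 kb away, was lower in 32 (−1.23 ± 0.09, limma adjusted p = 0.000355), and at −0.85 after quantile normalization it was no longer called. The ratio of Dppa3 to Nanog FPKM was 0.284 and 0.32 in R1, 0.645 and 0.668 in 16-6, 0.774 and 0.705 in 32, 0.87 in S8 and 0.572 in T2, so it was above R1 in every iPSC library. The ratio of Dppa3 to Gdf3 was not. It was 0.681 and 0.72 in R1, 1.26 and 1.36 in 16-6, 2.03 and 1.89 in 32 and 0.881 in T2, but 0.64 in S8.

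Beside Dppa5a, Ooep, a maternal gene that also carries a KH domain, lies 8.7 kb away. It was at 36.31 and 41.16 FPKM in R1, 37.25 and 34.85 in 16-6, 54.79 and 61.67 in 32, 54.56 in S8 and 30.61 in T2. The ratio of Dppa5a to Ooep FPKM was 33.8 and 36.7 in R1, 21.3 and 23.9 in 16-6, 43.1 and 24.4 in 32, 34.9 in S8 and 36.1 in T2, so the first library of 32 was above all the others and the second was close to those of 16-6.

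**Figure D4:**
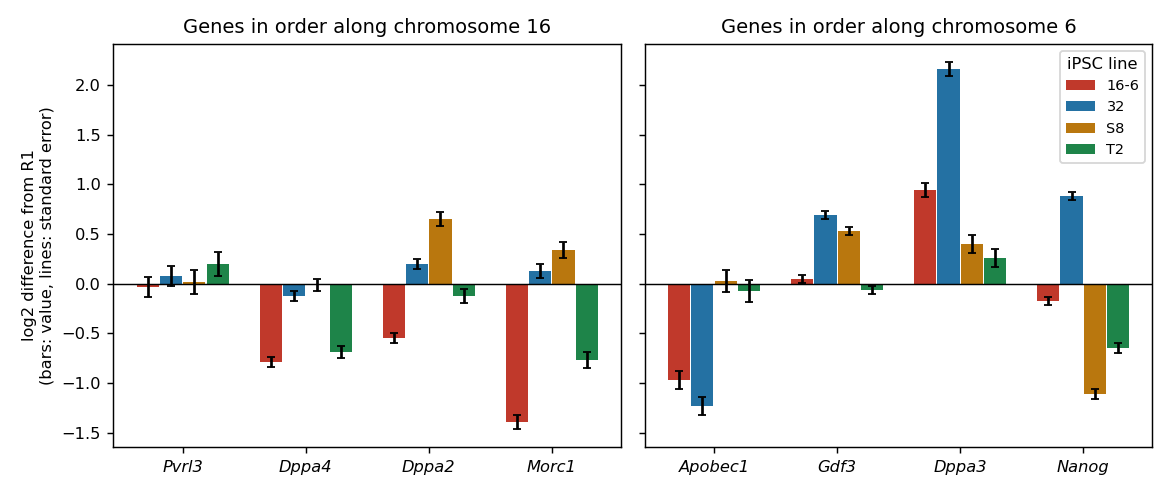
Difference from R1 on the log2(FPKM + 1) scale (vertical axis) in each iPSC line for genes in chromosome order around Dppa4 and Dppa2 (left) and around Dppa3 (right), with standard errors as lines. Distances are not to scale. Morc1 shows the same low lines as Dppa4, 16-6 and T2, and Dppa3 in 32 exceeds Gdf3 and Nanog.

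Other genes linked to the functions of the Dppa proteins were described from lists. Of 10 genes of the Zscan4 and Dux group, 5 were tested, and all were Zscan4 genes at FPKM below 4. In 16-6 all 5 were called as lower than in R1, in 32 4, in T2 2 and in S8 1, where 7.11%, 9.77%, 10.5% and 16.7% of all genes were called. Zscan4b and Zscan4e passed the filter only through R1, so their lower values elsewhere are partly fixed by that choice. The call in S8 was Zscan4e. The median difference was −1.55 in 16-6, −1.04 in 32, −0.25 in S8 and −0.85 in T2, beside −0.03 to −0.02 over all genes. In 16-6, 32, T2 and S8 the calls were 4, 0, 1 and 1 after quantile normalization, where the S8 median was 0.03, and 4, 2, 2 and 1 with median-of-ratios scaling. Zscan4c was at 2.334 and 2.517 FPKM in R1 and 0.0947 and 0.1285 in 16-6. Reads of these near-identical genes are hard to assign, so their values are uncertain. Dux was below 0.3 FPKM in every library.

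Of 7 genes of the DNA methylation machinery, 0 were called in 16-6 or 32 (7.11% and 9.77% of all genes), although 1 was lower in 16-6 after quantile normalization. In S8 3 were higher and 2 lower (16.7% of all genes called), and in T2 2 were higher and 2 lower (10.5%). Uhrf1, whose protein DPPA3 restrains, was lower in 16-6 (−0.61 ± 0.04, limma adjusted p = 0.000296) and at 0.05 ± 0.04 in 32, the line with the most Dppa3 (adjusted p = 0.277). These RNA levels do not show how DPPA3 acts on the UHRF1 protein. The de novo methyltransferase gene Dnmt3b rose in S8 (1.77 ± 0.08, limma adjusted p = 0.000122) and T2 (1.74 ± 0.08, adjusted p = 0.00023), and Dnmt3l, its cofactor gene, in S8 (1.62 ± 0.12, adjusted p = 0.000341), where it was at 0.91 and not called relative to Pou5f1. The hydroxylase gene Tet1 fell in both lines, by 2.00 ± 0.06 in S8 (limma adjusted p = 6.67e-05) and by 1.13 ± 0.06 in T2 (adjusted p = 0.000294). Relative to Pou5f1 the counts were 1 higher and 2 lower in each of S8 and T2, where 3841 and 1616 of all 13693 genes were called.

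Of 14 ES cell-associated transcripts, 3 were called as lower than R1 in 16-6, 5 in S8, 4 in T2 and 1 in 32. In 32 1 was called as higher, Khdc3 (2410004A20Rik in the files, 1.28), and in S8 2, Dnmt3l (1.62) and Utf1 (1.46). Dnmt3l is also in the DNA methylation list and Khdc3 in the list of KH domain and maternal complex genes. Nanog and Zfp42 are also pluripotency markers. A call of such a gene is counted in both lists. The shares of all genes called were 7.11% in 16-6, 16.7% in S8, 10.5% in T2 and 9.77% in 32. Relative to Pou5f1 there were 0 higher and 6 lower in S8, 6 lower in T2 and 2 lower in 16-6. Of all 13693 genes, 3841 were then called in S8, 1616 in T2 and 1301 in 16-6. The median of all genes was −0.61 in S8, −0.23 in T2 and 0.28 in 16-6, so this scaling itself lowered values in S8 and T2. With median-of-ratios scaling 2 of the 14 were lower in 16-6 and 0 in 32, and after quantile normalization 3 were higher in S8. Zfp42 (Rex1), a zinc finger gene of naive ESCs, was lower in all 4 iPSC lines, from −1.02 ± 0.05 in 32 to −2.53 ± 0.06 in T2, and with median-of-ratios scaling the value in 32 was −0.94 and not called. Utf1, a chromatin factor of pluripotent cells, was higher in S8 (1.46 ± 0.05, limma adjusted p = 7.63e-05), but at 0.74 and not called relative to Pou5f1, whereas Tdgf1 and L1td1 were not called in any line against R1.

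Among 9 primordial germ cell genes, the call in 32 against R1 was Tfap2c (named Tcfap2c in the files), a transcription factor of germ cell specification, at 1.12 ± 0.05 (limma adjusted p = 0.000106). It was at 66.11 and 64.25 FPKM in 32 and between 26.28 and 32.59 in the other libraries. In 32 against R1, 9.77% of all genes were called and 1.54% were called as higher. In 16-6 1 of the 9 was called as lower, in S8 1 and in T2 2, and 0 were called as higher, beside 7.11%, 16.7% and 10.5% of all genes called. The call in 16-6 was lost with median-of-ratios scaling and relative to Pou5f1, where S8 and T2 had 3 lower each, and 2 were higher in 32 after quantile normalization. Relative to Pou5f1, 3841 of all 13693 genes were called in S8 and 1616 in T2. Kit, the stem cell factor receptor, was lower in S8 (−1.49 ± 0.09, limma adjusted p = 0.000181) and T2 (−1.35 ± 0.09, adjusted p = 0.000444), and Ifitm3 in T2 (−1.17 ± 0.12, adjusted p = 0.00122).

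Of 8 KH domain and maternal complex genes, 3 reached the filter, Ooep, Khdc3 (named 2410004A20Rik in the files) and Tle6. Khdc3 was called as higher in 32 than in R1 (1.28 ± 0.12, limma adjusted p = 0.000736), at 13.09 and 13.13 FPKM against 4.217 and 5.453, where 9.77% of all genes were called. No other call was made in this list against R1, except that after quantile normalization Khdc3 was also called in S8 (2410004A20Rik, 1.11, limma adjusted p = 0.00167, against 0.91 without it).

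Likeness of pattern was measured as the root mean square difference of centred log2 line means over the 5 lines, as a description. The genes nearest to Dppa2 were 0610010O12Rik (0.0447), the DNA polymerase delta subunit gene Pold2 (0.0606) and 2410076I21Rik (0.0638). Nearest to Dppa4 were Vill (0.0341), Enox1 (0.0489) and Klf2 (0.051), a Kruppel-like factor of naive pluripotency at 273 FPKM in R1 and 155.6 in 16-6. Dppa3 had no gene as close, the nearest being the meiotic gene Spata22 (0.148), Msc (0.162) and Agpat9 (0.292). For Dppa5a they were the synaptonemal complex gene Syce2 (0.131), the germ cell RNA-binding gene Dazl (0.132) and Tuba3a (0.137). Dppa2 was the 16th nearest to Dppa5a. Seen from Dppa2, Dppa5a was the 165th nearest (0.177) and Dppa4 the 708th (0.239). Dppa4 and Dppa5a were also 0.239 apart.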

How the data were processed

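Per the labels and the study's methods, the authors mapped RNA-seq reads to mm9 and UCSC genes with TopHat 2.0.4, kept unique alignments and deposited FPKM with confidence limits from Cufflinks (2.0.0 in the processing notes, with another version in the methods). The deposited FPKM of a library summed to 1.14408e+10 to 1.60283e+10, and all were divided by 12725.7. The files hold no counts. The fragments behind a value were taken as (2 × FPKM / w) squared, with w the distance from FPKM to its upper limit. This treats the limits as counting error only. For Dppa4 in R1 it gave 2405.5 at 135.6 FPKM and 1746.1 at 142.5 FPKM. The limits of Dppa4 thus did not follow counting error alone, and the cause was not tested.

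Genes that reached an FPKM of 1 in any library were fitted as log2(FPKM + 1) in limma 3.58.1 (R 4.3.3, eBayes with a trend), with 8 libraries in 5 groups and 3 residual degrees of freedom. Replicates were not blocked. The fit was tested on simulated data. Members and lists were chosen with earlier results of these data known. Named genes were the members, their 2 nearest entries on each side, the 3 most alike, and up to 4 of each list by mean FPKM. Symbols were matched with RefSeq synonyms where needed. Transcripts were taken from GENCODE vM1 and aligned to NCBIM37, the same build as mm9, with minimap2 2.31. The promoter came from RefSeq. Python 3.11.15 was used.

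Alternatives were a pseudocount of 0.1, other filters, quantile, median-of-ratios and Pou5f1 scaling, no fold minimum, eBayes without a trend, omitted libraries, the 16-6 libraries averaged, and a replicate block.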

Additional observations from a re-analysis of the deposited data

Results flagged for a closer look

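Differences from R1 that themselves differed between iPSC lines, by the limma test of the difference with at least 2-fold, were found for 3 of the 4 tested genes. Of all genes, 2.75% to 17.3% were called in a single pair of iPSC lines. The share called in any such pair was not counted, so the 3 cannot be set against it. Because R1 cancels, each is the difference of 2 iPSC lines. For Dppa2 the change from R1 was 0.65 in S8 and −0.55 in 16-6, a difference of 1.20 (limma adjusted p = 0.000144). Relative to Pou5f1 it was not called.

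For Dppa3 the change from R1 was 2.16 in 32, larger than the 0.94 in 16-6 by 1.21 (limma adjusted p = 0.00018), a difference not called relative to Pou5f1. Compared with 32, the change in S8 differed by −1.75 (adjusted p = 0.000206) and that in T2 by −1.89 (adjusted p = 0.000291).

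For Dppa5a the change was −0.75 in 16-6, and those of 32 and S8 exceeded it by 1.22 (limma adjusted p = 0.00773) and 1.23 (adjusted p = 0.0133). Relative to Pou5f1 neither difference was called. S8 and T2 have 1 library each. No group had the 4 libraries needed to look for a library far from the others.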

How the results depend on the processing

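Of 684 values of single genes recomputed, 624 kept their direction and call, 29 were newly called, 9 were no longer called and 22 changed sign. Of the 29, 21 came from dropping the 2-fold minimum, where the differences themselves did not change. Filters, the eBayes trend and the omission of a library outside a pair of lines also leave the difference unchanged. Values under those settings could change only through the adjusted p. Without a fold minimum the number of Dppa genes called became 4 in 16-6 against R1, 2 in 32 against R1, 2 in S8 against R1, 1 in T2 against R1, 4 in 32 against 16-6, 4 in S8 against 16-6, 2 in T2 against 16-6, 2 in S8 against 32, 3 in T2 against 32, 2 in T2 against S8 and 2 for the mean of the iPSC lines. With median-of-ratios scaling 16-6 against R1 and the mean each had 1, which was Dppa3. After quantile normalization 32 against 16-6 and S8 against 16-6 had 1 each. Relative to Pou5f1, which moved the median of all genes by 0.30 in 16-6, −0.57 in S8, −0.20 in T2 and −0.09 in 32 against R1, the counts were 1 in 16-6 against R1, 0 in 32 against 16-6, 1 in S8 against 16-6 and 1 in T2 against 16-6. In S8 against 16-6 the calls of Dppa2 (0.16) and Dppa5a (0.17) were lost and Dppa3 was called instead (−1.59). With the 16-6 libraries averaged, S8 against 16-6 had 1.

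Leaving out 1 library gave counts of 0 to 1 in 16-6 against R1 and 0 to 1 for the mean (1 without the second R1 library, which is Dppa3), 1 to 2 in 32 against 16-6 (1 without the first 32 library), 1 to 2 in S8 against 16-6 (1 without the first 16-6 library) and 1 to 2 in T2 against 32 (2 without the second 32 library).

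Signs changed relative to Pou5f1 for Dppa2 in S8 against R1 (−0.06), T2 against 16-6 (−0.14), S8 against 32 (−0.16) and the mean (−0.13), for Dppa3 in S8 against R1 (−0.30) and T2 against S8 (0.34), for Dppa4 in S8 against 16-6 (−0.27), T2 against 16-6 (−0.47) and S8 against 32 (−0.51), and for Dppa5a in S8 against R1 (−0.23), T2 against 16-6 (−0.14) and S8 against 32 (−0.61). With quantile normalization they changed for Dppa5a in S8 against 32 (−0.02), Dppa3 in T2 against S8 (0.02) and the mean of Dppa2 (−0.07). With median-of-ratios scaling they changed for Dppa4 in S8 against R1 (0.02), Dppa5a in S8 against 32 (−0.03) and the mean of Dppa5a (0.04). With single libraries left out, Dppa4 in S8 against R1 ranged from −0.05 to 0.02 and the mean of Dppa5a from −0.17 to 0.13, the highest without the second R1 library. Without the second 32 library Dppa5a in S8 against 32 was −0.31 and the mean of Dppa5a was 0.06. The cause was not tested.

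The genes called among all tested moved by over 1.5 times without a fold minimum in all 11 comparisons (376 to 4725 in T2 against S8, 974 to 7610 in 16-6 against R1), with a pseudocount of 0.1 in 8 (878 to 1664 for the mean), with an FPKM of 1 required in every library in 6 (878 to 462 for the mean) and relative to Pou5f1 in 5 (2375 to 5450 in S8 against 16-6).

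Replicate differences correlated at −0.097, 0.001 and 0.028 across genes between lines, so no large effect shared by replicate number was seen. Whether libraries of the same number were prepared together cannot be told from this. With a replicate block the counts stayed at 0 in 16-6 against R1, 1 in 32 against R1 and 2 in 32 against 16-6, without S8 and T2, and the F test stayed at 4. The adjusted p of Dppa5a in 16-6 against R1 became 0.071. Dppa1 had too few fragments to be tested, and the effect of depth on the other genes was not tested.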
